A study of Rattus norvegicus with 12 samples.

Results

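The cyclin kinase inhibitors and growth arrest genes of CC531 cells, an established rat colon carcinoma line, were followed under butyrate and aspirin. The 9 genes were chosen by name: the inhibitors Cdkn1a, Cdkn1b, Cdkn2a and Cdkn2b, the retinoblastoma gene Rb1, and the growth arrest genes Gadd45a, Btg1, Btg2 and Gas6. A probe set, the group of short array probes combined into 1 value, was taken where the array annotation gave 1 of these symbols and no other gene. This gave 14 of 8740 probe sets, for 7 of the 9 genes, among 4736 genes that a probe set names alone. Cdkn2a and Btg2 had no probe set that named them alone and are not analysed here. The study held 12 arrays: 2 of untreated cells, taken at 2 and 24 h, 5 of cells given 4.5 mM butyrate and 5 of cells given 3 mM aspirin, each taken at 2, 6, 12, 16 and 24 h. Every treatment and hour had 1 array, and the labels do not say whether the arrays came from separate cultures, and the p-values therefore reflect no more than how far these arrays scatter, some of which may be technical. In the comparisons with untreated cells the hours of a group stand in as its replicates. The spread of a group, given as SD, thus includes any change over its hours. Each array measured the RNA of a whole culture, in which fewer cells of a type and less RNA per cell cannot be told apart.

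Cyclin-dependent kinases drive a cell from one phase of its cycle to the next by phosphorylating proteins such as the retinoblastoma protein, which in its unphosphorylated form holds back E2F factors and so the genes of DNA replication. The CIP/KIP inhibitors, encoded by Cdkn1a and Cdkn1b, bind cyclin-kinase complexes of several kinds, while the INK4 inhibitors, encoded by Cdkn2a and Cdkn2b, bind the kinases that partner with D-type cyclins. Butyrate, a short-chain fatty acid made by gut bacteria, inhibits histone deacetylases, and CDKN1A is a widely studied butyrate-responsive gene of colon cancer cells. Aspirin acetylates the cyclooxygenases and at high concentration also acts outside them.

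Values are the deposited array intensities, on a linear scale on which a value near or below 0 means no signal over background. For differences and tests, values below a floor of 91 were raised to it and then taken to log2. Probe sets with a mean log2 of at least 6.54, the 30th percentile, were tested, 6118 in all. Of the 14 probe sets of the family 11 were tested, for 6 genes. Between 21.6 and 25.6% of the values on each array were negative. The markers of epithelium were present, with 11 of 12 measured above the floor on every array and a summed intensity of 65023.5 to 78456.8 with butyrate, 71736.9 to 81380.6 with aspirin and 69015.5 to 86082.6 in untreated cells. Among them Krt19 was higher with butyrate than in untreated cells by 0.87 ± 0.20 (SE, limma, adjusted p = 0.0166) and Krt18 lower by −0.48 ± 0.12 (0.0258). Against aspirin, Krt19 (0.69 ± 0.07, 0.00561) and Krt8 (0.22 ± 0.06, 0.0408) were higher with butyrate. In the same comparison Epcam (−0.57 ± 0.09, 0.0121) and Krt18 (−0.36 ± 0.09, 0.0322) were lower. Of the markers of other cells, 5 of 10 for fibroblasts, 1 of 4 for endothelium and 0 of 6 for blood cells were above the floor on every array, and Pdgfrb, Vwf and Cd8a were at the floor on all arrays. The summed fibroblast markers were 8994.2 to 9410.4 in untreated cells, 6319.1 to 8335.8 with butyrate and 6480.3 to 9256.5 with aspirin. Those of endothelium were 872.3 to 1019.3, 599.7 to 676.1 and 644.3 to 842, and those of blood cells 672.6 to 1482.1, 667.7 to 1136.3 and 653.3 to 1171.4. The fibroblast sums with butyrate and the endothelium sums with both treatments thus lay below the untreated ones, and the part of this in the results below was not tested. The brightest parts of these sums were Vim (median 3777.4) and Acta2 (2824.45) for fibroblasts and Flt1 (367.65) for endothelium. Thy1, a fibroblast marker near the floor, rose with the hours of butyrate (0.34 ± 0.07, SE, limma, adjusted p = 0.0276). In cultures of 1 line these sums do not show that other cells were present.

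Btg1 and Cdkn2b were the members whose levels moved with the hours of treatment. Btg1, an antiproliferative gene, rose with the hours of butyrate on both of its probe sets and reached 13962.4 and 10586.8 at 24 h, which was 2.89 and 2.13 times the untreated array of that hour. Cdkn2b, the INK4 inhibitor p15, rose with the hours of aspirin from 358.5 to 2397.6, or 6.69-fold, and at 24 h was at 2.35 times the untreated array, which was itself 1.93 times the one of 2 h. With butyrate it went from 443.4 at 2 h to 914.7 at 24 h, a slope that did not pass. Cdkn1a, the CIP/KIP inhibitor p21, was at the floor in both untreated arrays and at 321 to 412.3 with 6 to 24 h of butyrate on 1 of its 2 probe sets, a difference that did not pass the test. Gadd45a was at its highest with 24 h of aspirin on 3 of its 4 probe sets.

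The sequences before the annotated starts of these 3 genes are shown because butyrate-responsive transcription of CDKN1A has been studied at GC boxes, the binding sites of Sp1-type factors. They are RefSeq promoter sequences of the GRCr8 build, 5′ to 3′ on the strand of the gene, up to the base before the outermost annotated start, and capitals mark GGGCGG, the GC box, or CCGCCC, the same box on the other strand.
Cdkn1a, chr20:7150682-7150819, plus strand: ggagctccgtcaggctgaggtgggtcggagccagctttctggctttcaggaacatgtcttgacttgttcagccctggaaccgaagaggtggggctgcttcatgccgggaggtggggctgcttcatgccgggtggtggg
Cdkn2b, chr5:109134907-109135105, minus strand: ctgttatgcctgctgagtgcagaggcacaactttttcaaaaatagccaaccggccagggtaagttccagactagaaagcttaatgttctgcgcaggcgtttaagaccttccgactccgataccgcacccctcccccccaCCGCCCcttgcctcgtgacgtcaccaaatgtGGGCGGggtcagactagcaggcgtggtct
Btg1, chr7:33227899-33228148, plus strand: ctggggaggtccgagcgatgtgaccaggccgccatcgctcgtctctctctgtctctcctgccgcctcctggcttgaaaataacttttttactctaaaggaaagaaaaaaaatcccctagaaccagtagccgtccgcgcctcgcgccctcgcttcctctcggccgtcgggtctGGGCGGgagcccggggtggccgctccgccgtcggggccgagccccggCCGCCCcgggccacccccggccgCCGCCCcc
The 138 bases shown for Cdkn1a held 0 such boxes, the 199 for Cdkn2b held 2 and the 250 for Btg1 held 3. Within the 250 bases before the table's start, 8 of the 9 members had at least 1 match on either strand, and 10197 of 33469 promoters of the table (30.5%) did. A match is a description of the letters, and no binding was measured here.

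Cdkn1a was measured by 2 probe sets. On U24174_at, both untreated arrays were below 0, at −275.6 at 2 h and −140.2 at 24 h. With butyrate the intensities were 4.4, 407, 412.3, 321 and 379.5 at 2, 6, 12, 16 and 24 h. With aspirin they were −172.9, 354.3, 222.1, −13 and 369.8. Butyrate was thus above the floor from 6 h on, aspirin at 6, 12 and 24 h, and both were at the floor at 2 h. The probe set passed the filter only through the treated arrays above the floor. The signal was 3.53 to 4.53 times the floor with 6 to 24 h of butyrate, and 2.44 to 4.06 times the floor on the 3 aspirin arrays above it. On the log2 scale the mean was 8.15 ± 0.93 (SD, n = 5) with butyrate and 7.56 ± 1.0 (SD, n = 5) with aspirin, and the untreated arrays were at the floor, 6.51. The difference of butyrate from untreated was 1.64 ± 0.66 (SE, limma, adjusted p = 0.117), and it depended on the floor, being 2.44 with the floor divided by 2 and 0.84 with it multiplied by 2. Without the 2 h butyrate array it was 2.05 and passed (adjusted p = 0.0207). That fit called 1166 of all probe sets, against 716 with every array, so the gain was not particular to Cdkn1a. The aspirin difference was 1.05 ± 0.66 (adjusted p = 0.599), and the 2 treatments differed by 0.59 ± 0.32 (adjusted p = 0.218). The slope with butyrate was 0.53 ± 0.27 (adjusted p = 0.281), and −0.09 without the 2 h butyrate array.

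The second Cdkn1a probe set, L41275cds_s_at, was dim. Its intensities were −247.3 and −100.1 in untreated cells, −99.7 to 121.6 with butyrate and −74.3 to 190.3 with aspirin. It was above the floor on 3 of 5 butyrate arrays, at 6, 16 and 24 h, and on 2 of 5 aspirin arrays, at 6 and 24 h, and on neither untreated array. It too passed the filter only through those treated arrays. Its difference of butyrate from untreated was 0.12 ± 0.26 (SE, limma, adjusted p = 0.813). The 2 probe sets correlated at r = 0.49 over the 12 arrays, with many values of both tied at the floor. They disagree on the size of any change, at 0.12 here and 1.64 on U24174_at. Cdkn1b, for the inhibitor p27, was measured by D83792_at, which lay between −62.1 and 39.1 on the 12 arrays, below the floor on each, and was not tested.

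Cdkn2b was measured by S79760_at, which was above the floor on every array. Untreated cells gave 528.2 at 2 h and 1021 at 24 h. With butyrate the intensities were 443.4, 607.5, 579.2, 727.9 and 914.7 over the 5 hours. With aspirin they were 358.5, 702.5, 1323, 1947.2 and 2397.6, each higher than the one before. At 2 h the aspirin array was the lowest of the 3 and at 24 h the highest, 2.35 times the untreated array of that hour, and the butyrate array was at 0.90 of it. The 24 h array was 1.93 times the 2 h array in untreated cells, 2.06 times with butyrate and 6.69 times with aspirin. A ratio of at least 2 was found in 5.66%, 11.9% and 10.7% of all tested probe sets.

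The rise of Cdkn2b with the hours of aspirin was 0.79 ± 0.07 in log2 per doubling of the hours (SE, limma, adjusted p = 0.0152), or 1.73-fold, and it had the lowest p of the 6118 probe sets in that test. It passed in each of 10 fits that left out 1 array (adjusted p 0.00902 to 0.0494), in 6 other settings (0.00259 to 0.0332) and with linear hours (0.0212). This slope is fitted on the aspirin arrays alone. Leaving out a butyrate array thus changes only the estimated spread and the set of probe sets tested. The slope with butyrate was 0.25 ± 0.07 (adjusted p = 0.065, or 0.0483 without the variance trend). The difference of the slopes, butyrate minus aspirin, was −0.54 ± 0.10 (adjusted p = 0.0448), but it passed in only 1 of 10 fits with an array left out (0.0482 to 0.219) and failed with quantile normalization (0.0727), the common median (0.0525), the doubled floor (0.0559), no filter (0.0584) and linear hours (0.138). Over all hours the group means lay within their spread, which includes the change over the hours. The means were 10.09 ± 1.12 (SD, n = 5) with aspirin, 9.52 ± 0.67 (SD, n = 2) untreated and 9.31 ± 0.39 (SD, n = 5) with butyrate. The difference from untreated cells was 0.57 ± 0.59 with aspirin (adjusted p = 0.804) and −0.21 ± 0.59 with butyrate (adjusted p = 0.864), and the latter was 0.27 without the 24 h untreated array. Butyrate lay below aspirin by −0.78 ± 0.31 (adjusted p = 0.113), in 4 of 5 hours, and by −1.05 (0.0436) without the 2 h array of either treatment.

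Rb1, whose protein the kinases phosphorylate, was measured by 2 probe sets at background. D25233cds_at was above the floor on 1 array, butyrate at 12 h with 129.2, and the other arrays lay between 10.2 and 73.9. It passed the filter through that array, and its differences were 0.10 ± 0.16 with butyrate and 0.00 ± 0.16 with aspirin. The other probe set, rc_AI178012_at, lay between −12.8 and 57 and was not tested.

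Btg1 encodes a member of the BTG/TOB family, which slows proliferation and takes part in the shortening of messenger RNA tails. On L26268_at the untreated arrays gave 3892 at 2 h and 4832.2 at 24 h. With butyrate the intensities were 5244.6, 7210.4, 8932.5, 12214 and 13962.4 over the 5 hours. With aspirin they were 3933.7, 3789.4, 6288.4, 6014.6 and 9802.7. Every butyrate array was above both untreated arrays and above the one before it, and butyrate was above aspirin at each of the 5 hours, by 1.33 to 2.03-fold. At 24 h aspirin was at 2.03 times and butyrate at 2.89 times the untreated array of that hour.

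On the second Btg1 probe set, L26268_g_at, the untreated arrays gave 3590 and 4969.8. With butyrate the intensities were 3606.5, 6969.3, 5951.8, 9465 and 10586.8, and with aspirin 3294.2, 3774.6, 5423.7, 5246.4 and 4183.8. Butyrate at 2 h lay between the untreated arrays and all later butyrate arrays lay above them. Butyrate was above aspirin at each hour here too, by 1.09 to 2.53-fold. The 2 probe sets differed on aspirin at 24 h, where this one was at 0.84 of untreated, and they correlated at r = 0.84 over the 12 arrays. Their names hold the same accession, so they share a source sequence and are not independent.

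The rise of Btg1 with butyrate was 0.40 ± 0.08 in log2 per doubling of the hours on each probe set, or 1.32-fold (SE, limma, adjusted p = 0.025 for L26268_at and 0.0258 for L26268_g_at). The slope lay between 0.37 and 0.50 and between 0.33 and 0.43 when 1 array was left out, and the call was lost on both without butyrate at 2 h (0.207 and 0.446), 16 h (0.0752 and 0.0765) or 24 h (0.115 on each), with the doubled floor (0.0597 on each) and without the filter (0.0603 and 0.0611), and on L26268_g_at with linear hours (0.0625). With aspirin the slope was 0.35 ± 0.08 (adjusted p = 0.067, and 0.0474 without the 2 h aspirin array) and 0.16 ± 0.08 (0.335), and the slopes of the treatments differed by 0.05 ± 0.12 (0.877) and 0.24 ± 0.12 (0.336). Over the hours the level of L26268_at was higher with butyrate than with aspirin by 0.68 ± 0.12 (adjusted p = 0.0141), in 5 of 5 hours, and that of L26268_g_at by 0.67 ± 0.20 (0.0569). The first was lost without the butyrate or the aspirin array of 6, 12 or 16 h (0.0557 to 0.0578), when each array was scaled to a common median (0.36, adjusted p = 0.127) and without the hour as a block (0.15).

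Against untreated cells the Btg1 difference did not pass. With butyrate it was 1.05 ± 0.38 (SE, limma, adjusted p = 0.0903) and 0.70 ± 0.34 (0.195), from means of 13.13 ± 0.57 and 12.74 ± 0.61 (SD, n = 5) against 12.08 ± 0.22 and 12.04 ± 0.33 (SD, n = 2). It passed on both without the 2 h butyrate array (0.0294 and 0.0285), where 1166 of all probe sets were called, against 716 with every array. On L26268_at it also passed with hour as a factor (1.09, adjusted p = 0.0417). With aspirin it was 0.37 ± 0.38 (0.803) and 0.03 ± 0.34 (1), from means of 12.45 ± 0.56 and 12.07 ± 0.31 (SD, n = 5).

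**Figure D1:**
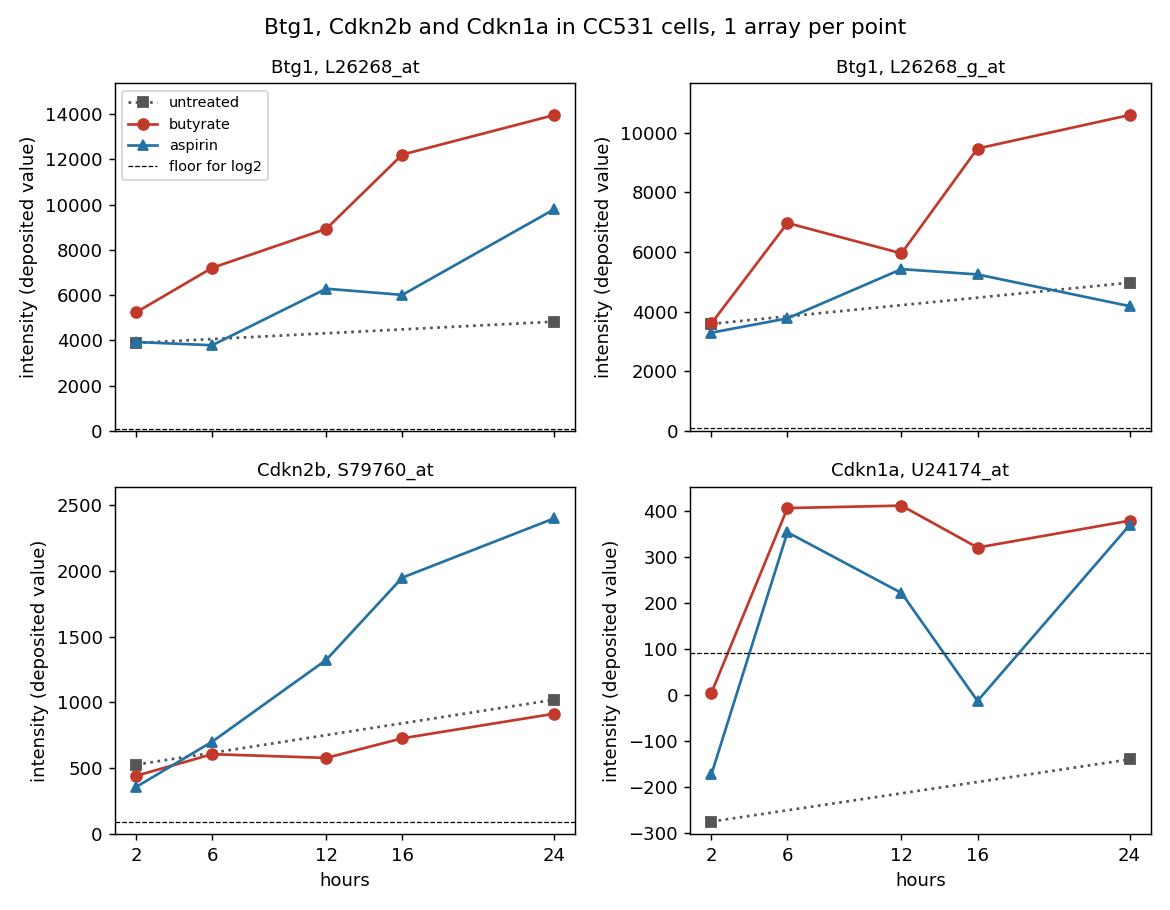
Deposited intensity against hours for both Btg1 probe sets, Cdkn2b and the brighter Cdkn1a probe set, with 1 array per point, lines joining the arrays of a group and the floor of 91 dashed. Btg1 climbed to 13962.4 and 10586.8 at 24 h of butyrate, Cdkn2b to 2397.6 at 24 h of aspirin, and both untreated Cdkn1a arrays lay below 0.

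Gadd45a, a growth arrest gene induced by DNA damage whose protein binds PCNA and p21, was measured by 4 bright probe sets. On L32591mRNA_at the untreated arrays gave 3740 and 3734.1, the butyrate arrays 4355.1, 3915, 3577.4, 4561.4 and 5709.4, and the aspirin arrays 2970.5, 2963.2, 2739.2, 3359.7 and 7569.9. On L32591mRNA_g_at they gave 3942.9 and 4240.7, then 4518.6, 3964.3, 3052.7, 4419.8 and 5667 with butyrate, and 3131.5, 2717.1, 2905.1, 3564.1 and 7457.4 with aspirin. On both, the aspirin arrays of 2 to 16 h were below both untreated arrays and the array of 24 h was above every other array, at 2.03 and 1.76 times the untreated array of that hour.

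The other Gadd45a pair was less bright and varied more. On rc_AI070295_at the untreated arrays gave 2746.7 and 1415.8, the butyrate arrays 707.5 to 1773.9 and the aspirin arrays 450.4 to 1623.5. On rc_AI070295_g_at the untreated arrays gave 2122.3 and 1723.3, the butyrate arrays 935.4 to 2232.1 and the aspirin arrays 1079.7 to 3286.3. The aspirin array of 24 h was the highest of its group on each, at 1.15 and 1.91 times untreated, and on rc_AI070295_at it stayed below the 2 h untreated array. The 6 pairs of probe sets correlated at r = 0.53 to 0.97.

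Group differences of Gadd45a did not pass on any of the 4 probe sets with every array in the fit. Those of butyrate from untreated were 0.22 ± 0.32, 0.05 ± 0.33, −0.68 ± 0.45 and −0.15 ± 0.38 in the order above (SE, limma, adjusted p 0.355 to 0.95), and those of aspirin −0.05 ± 0.32, −0.16 ± 0.33, −1.06 ± 0.45 and −0.10 ± 0.38 (adjusted p 0.419 to 1). Butyrate against aspirin gained a call on L32591mRNA_at in 2 of 10 fits with 1 array left out (lowest adjusted p 0.0356). The signs near 0 turned with scaling to a common median or with the hour in the fit. The slopes with aspirin were 0.26, 0.26, 0.28 and 0.19, each with an adjusted p of at least 0.347.

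**Figure D2:**
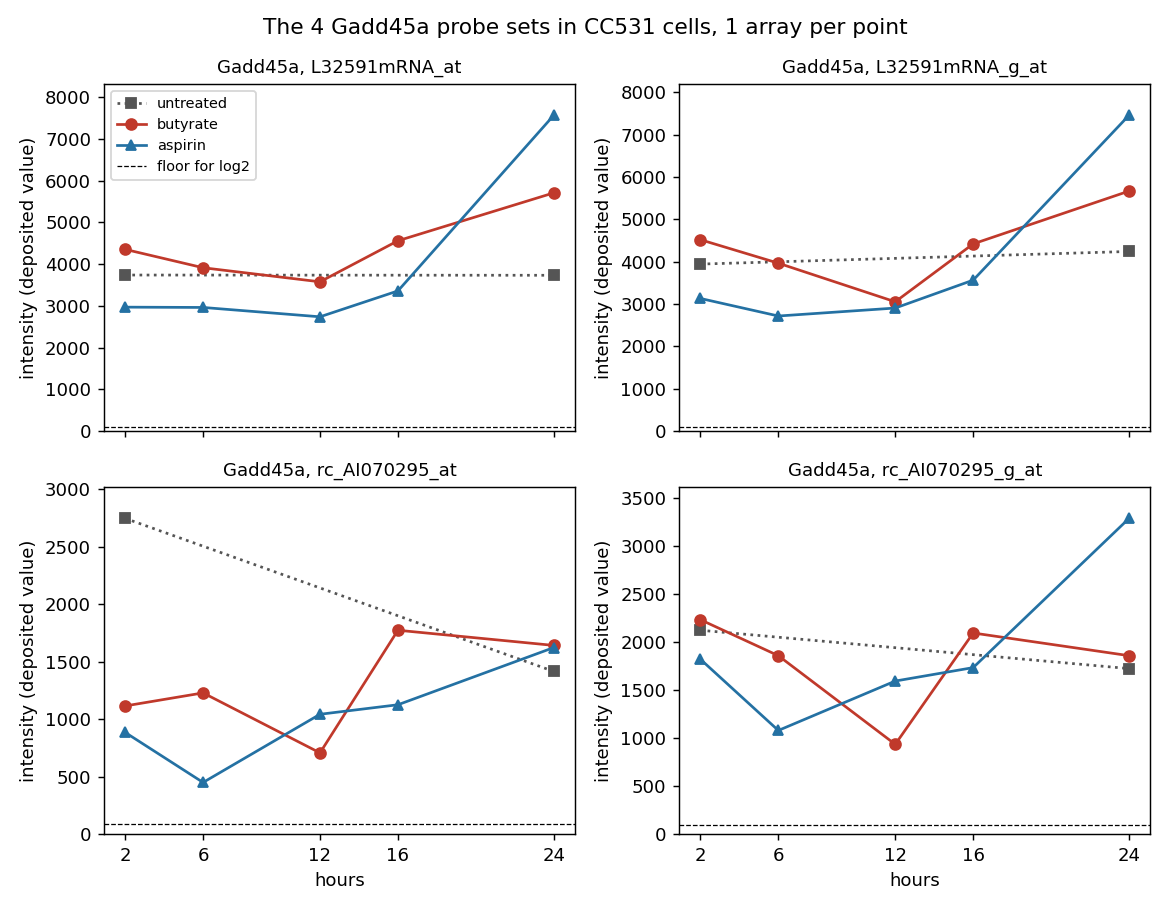
Deposited intensity against hours for the 4 Gadd45a probe sets, with 1 array per point, lines joining the arrays of a group and the floor of 91 dashed. The aspirin array of 24 h stood at 7569.9 and 7457.4 in the upper panels, above all other arrays, and at 1623.5 and 3286.3 in the lower ones.

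Gas6 encodes a vitamin K-dependent ligand of the TYRO3, AXL and MERTK receptors, first found in growth-arrested fibroblasts. On rc_AA874830_at the untreated arrays gave 709 and 323.5, the butyrate arrays 471.1, 679.7, 433.1, 712.9 and 614.4, and the aspirin arrays 564.8, 467.9, 432.7, 473.6 and 515.7. All aspirin arrays and 4 of 5 butyrate arrays lay between the untreated pair. The differences were 0.25 ± 0.34 with butyrate (SE, limma, adjusted p = 0.675) and 0.03 ± 0.34 with aspirin (adjusted p = 1), and both had the opposite sign without the 24 h untreated array (−0.31 and −0.54). The other Gas6 probe set, D42148_at, lay between −227.1 and 64.3, below the floor on every array.

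Counted over the 11 tested probe sets, the members stood as follows against all 6118. Butyrate against untreated called 0 of 11, where 11.7% of all were called, and aspirin against untreated called 0 of 11, where 0.147% were. At an unadjusted p under 0.05 there were 2 and 1 of 11, against 28.8% and 10.7% of all. These comparisons share the untreated arrays. Butyrate against aspirin called 1 of 11, the Btg1 probe set L26268_at, against 25.2% of all, or 15.6% in that direction. The slope with butyrate called 2 of 11, both of Btg1 and upward, against 8.99% (4.79% upward), the slope with aspirin 1 of 11, Cdkn2b, against 1.65% (1.32% upward), and the difference of slopes 1 of 11, Cdkn2b, against 1.73%. The share of members called was below that of all probe sets in butyrate against untreated and in butyrate against aspirin, and in each other comparison it rests on 1 gene or on none. The 11 probe sets stand for 6 genes and are not independent. With 0 or 1 call among 11, a lower share does not set the members apart from all probe sets.

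Other patterns had backgrounds of like kind. Every butyrate array lay above both untreated arrays in 14.7% of the tested probe sets, as for Btg1 on L26268_at. Butyrate lay above aspirin at 5 of 5 hours in 19.9%, as on both Btg1 probe sets. Each butyrate array was above the one before in 5.36%, and each aspirin array in 3.11%, as for Cdkn2b. Both untreated arrays were at the floor with all butyrate arrays of 6 to 24 h at least 3 times above it in 0.736%, as for Cdkn1a on U24174_at. The aspirin array of 24 h stood at least 2-fold above the 4 other aspirin arrays in 1.21%, as for Gadd45a on L32591mRNA_at and L32591mRNA_g_at. These patterns and their cuts match values that the members already showed, so each share is a description and not a test.

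**Figure D3:**
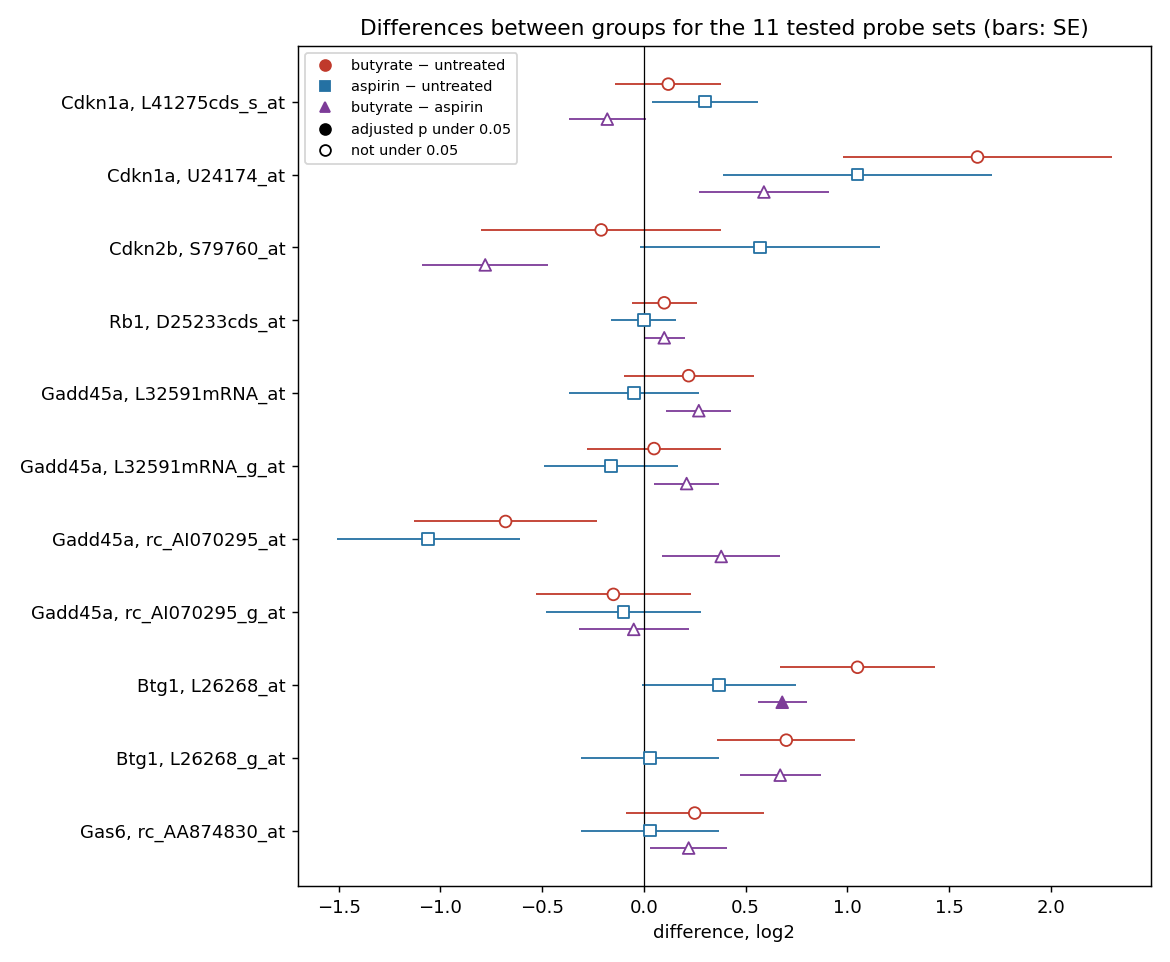
Difference between groups in log2 with its SE for the 11 tested probe sets, as butyrate minus untreated, aspirin minus untreated and butyrate minus aspirin, filled where the adjusted p was under 0.05. Only Btg1 on L26268_at, at 0.68 for butyrate minus aspirin, is filled.

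**Figure D4:**
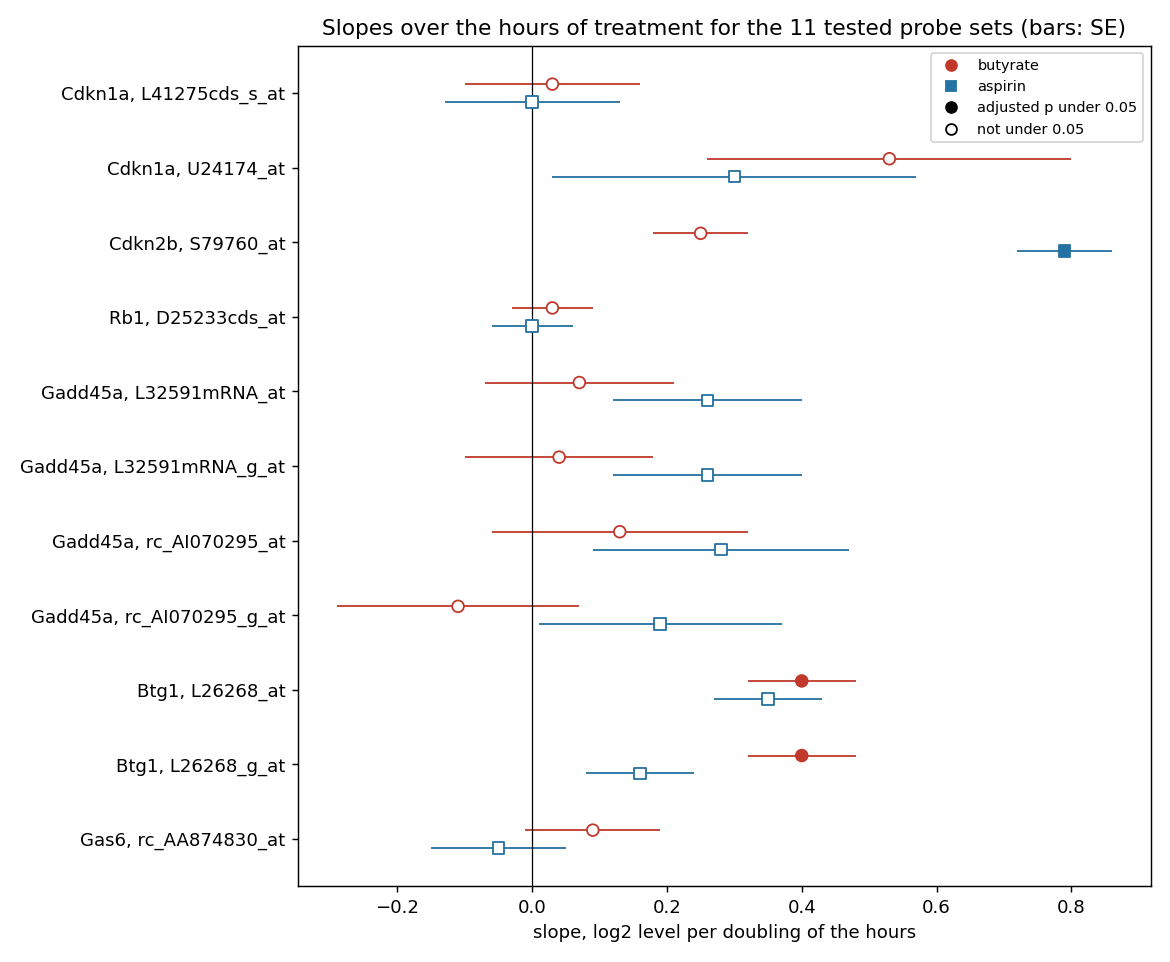
Slope in log2 per doubling of the hours with its SE for the same probe sets, with butyrate and with aspirin, filled where the adjusted p was under 0.05. The filled points are Btg1 on both probe sets with butyrate, at 0.40, and Cdkn2b with aspirin, at 0.79.

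The scale of the arrays matters for these counts. When each array was set to a common median, the median difference of all probe sets between butyrate and aspirin moved from 0.10 to −0.12, and the split of calls from 952 higher and 588 lower to 512 and 1057. The split of the butyrate slopes went from 293 up and 257 down to 140 and 420, and that of the aspirin slopes from 81 and 20 to 53 and 92 (81 and 55 with quantile normalization). Relative to the median of all, Btg1 on L26268_at was higher with butyrate than with aspirin by 0.58, by 0.79 with quantile normalization and by 0.48 with the common median. The Btg1 slopes with butyrate were 0.29 and 0.30 with the common median (adjusted p = 0.103 and 0.0926), and the Cdkn2b slope with aspirin was 0.70 (0.0292).

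The genes around the members were counted from lists, 1 probe set per gene. Over all tested probe sets 7.78% were higher and 3.92% lower with butyrate than in untreated cells, 4.79% rose and 4.2% fell with its hours, and 15.6% were higher and 9.61% lower with butyrate than with aspirin. Of 12 tested cyclin and kinase genes, 2 were higher and 3 lower with butyrate than in untreated cells (median −0.52, against 0.00 over all tested probe sets), and 0 rose and 6 fell with its hours. Ccnb1, for the mitotic cyclin B1, fell from 2988.2 at 2 h to 496.3 at 24 h of butyrate and stayed between 4259.1 and 4820.1 with aspirin. Its slope with butyrate was −0.64 ± 0.11 (SE, limma, adjusted p = 0.0121), and it passed in each of 10 fits with 1 array left out. In such fits, leaving out an aspirin array cannot move a slope with butyrate. Of 17 tested E2F target genes of DNA replication, 0 were higher and 2 lower with butyrate than in untreated cells (median −1.01). That share is near the 11.7% of all probe sets called in either direction, and 3.92% of all were called lower. At an unadjusted p under 0.05 in limma there were 8 of 17, against 28.8% of all. With the hours of butyrate 0 rose and 7 fell, where 8.99% of all were called and 4.2% fell. Mcm6, a subunit of the replicative helicase, fell from 4308.7 to 523.1 over the hours of butyrate. With aspirin it stood at 4196.6 at 2 h and 2369.6 at 24 h, a slope of −0.19 ± 0.13 that did not pass (SE, limma, adjusted p = 0.456). Its slope with butyrate was −0.83 ± 0.13 (adjusted p = 0.00961), passed in each of 10 such fits, and all 3 of its probe sets fell.

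With aspirin against untreated cells 0 of the 12 cyclin and kinase genes and 0 of the 17 E2F targets passed (medians −0.01 and −0.32, against −0.04 over all), with 1 of each at an unadjusted p under 0.05 in limma. Of 5 tested genes of the RB family and its partners, 0 passed against untreated cells with either treatment (medians −0.40 and −0.16, with 2 and 1 unadjusted), and of 6 of p53 and its targets, 0 passed (medians 0.17 and 0.04, with 2 and 0 unadjusted). With the hours of butyrate Rbbp7 (−0.21 ± 0.05, SE, limma, adjusted p = 0.0328) and Ddb2 (−0.38 ± 0.08, 0.0218) fell, where 8.99% of all were called. Against aspirin, butyrate was lower for Rbbp7 (−0.68 ± 0.13, 0.0169) and higher for Zmat3 (0.51 ± 0.12, 0.0277), where 25.2% of all were called. These calls were kept in 4, 8, 2 and 2 of 10 fits with 1 array left out, and Zmat3 lay near the floor. Among 3 tested genes around Gas6, 1 was higher with butyrate than in untreated cells, Ggcx, for the carboxylase that vitamin K serves, by 1.87 ± 0.49 (SE, limma, adjusted p = 0.0281), a call lost in 6 of 12 fits with 1 array left out. Of 21 tested regulators of the members, 3 were higher and 4 lower with butyrate than in untreated cells, and 1 was higher with aspirin (medians 0.03 and 0.09).

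Of 9 other tested inhibitor and growth arrest genes, 0 passed against untreated cells with either treatment (medians −0.13 and 0.54, with 5 and 3 unadjusted, against 28.8% and 10.7% of all), and 4 were lower with butyrate than with aspirin and 0 higher, where 25.2% of all were called. Gas5, a long non-coding RNA that accumulates in growth-arrested cells, stood at 3241.7 to 4216.5 on the 5 butyrate arrays and at 6285.8 to 9660.7 on the 5 aspirin arrays, with untreated arrays at 4152.4 and 7722.3. It was lower with butyrate by −1.20 ± 0.10 (SE, limma, adjusted p = 0.0046), and the call was kept in each of 10 fits with 1 array left out. With hour as a block, leaving out either array of an hour gives the same difference, so these fits are not all distinct. Ing4, for a chromatin reader of the inhibitor of growth family, was below the floor on every butyrate array and at 187.6 to 354.5 with aspirin. Its untreated arrays were at −169.4 and 239.7, and butyrate against untreated did not pass (−0.70 ± 0.34, SE, limma, adjusted p = 0.191). Against aspirin the fitted difference was −1.58 ± 0.17 (adjusted p = 0.00586), and its size depends on the floor (−2.58 to −0.58 over the settings, the latter with the doubled floor and an adjusted p of 0.0938).

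**Figure D5:**
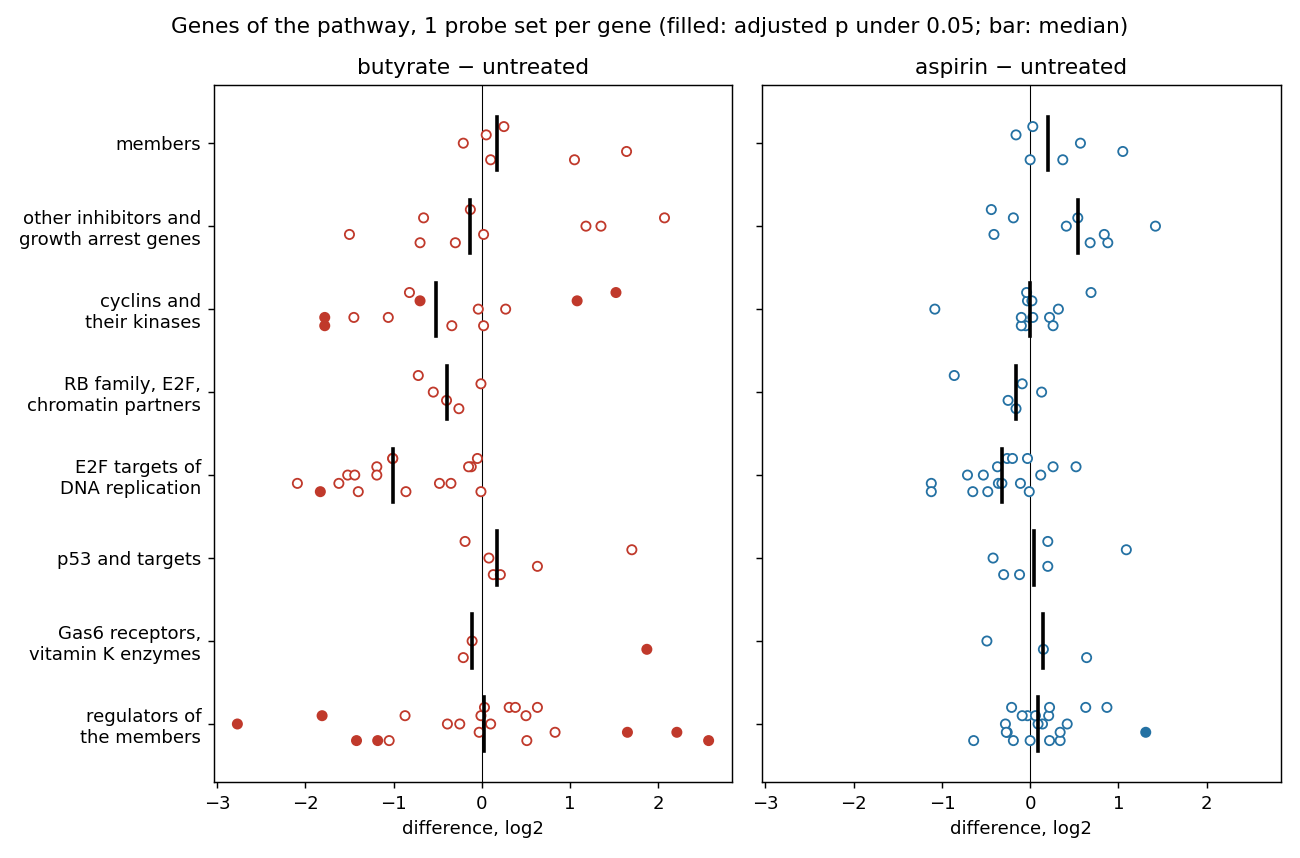
Difference from untreated cells in log2 for the tested genes of each list, 1 point per gene (its brightest probe set), with butyrate on the left and aspirin on the right, filled where the adjusted p was under 0.05 and with a bar at the list's median. All 17 E2F targets lie at or below 0 with butyrate, with a median of −1.01, and the 6 member genes have no filled point.

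The tested genes whose levels followed the members most closely over the 12 arrays are given as a description, since arrays of a treatment share their hours. For Btg1 they were Ctsl (r = 0.97), Ckmt1 (0.96) and Lta4h (0.96) on L26268_at, and Myl12b (0.95), Mfge8 (0.95) and Galm (0.93) on L26268_g_at, with no gene in common. For Cdkn2b they were Psme1 (0.93), Rad52 (0.92) and Mapk12 (0.91). For Cdkn1a on U24174_at they were Arhgap10 (0.90), Pcp4l1 (0.86) and Dynlt1 (0.83).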

How the data were processed

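12 RNA samples of 1 cell line were measured on 1-colour arrays, and the deposited table gives 1 intensity per probe set and array, on a linear scale as its values show. The authors' software and scaling are not stated in the labels or the table header. Trimmed of 2% at each end, array means ran from 1001.5 to 1002.1, and no further scaling was applied. The floor was the absolute value of the 10th percentile of all values, 91. Of 8799 probe sets 59 were controls. Names came from the array annotation, in which 7006 probe sets name 1 gene, 308 several and 1426 none.

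Log2 values were tested with limma 3.58.1 in R 4.3.3 (lmFit, then eBayes with a variance trend), with Benjamini-Hochberg adjustment over 6118 probe sets and a threshold of 0.05. Both comparisons with untreated cells used all 12 arrays, with the hours of a group standing in as its replicates. Butyrate was compared with aspirin with hour as a block, and slopes were fitted over log2 hours. The scripts were tested on simulated data. Differences that involve arrays at the floor depend on it. Precision is limited by the number of arrays. The members, the gene lists and the rule for named genes (up to 4 called genes per list and comparison, largest change first, by the brightest probe set, and the 3 genes most correlated with a member) were chosen with earlier results of these data known. The alternatives were other floors, filters, scalings and fits and leaving out each array.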

Additional observations from a re-analysis of the deposited data

Results flagged for a closer look

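In 28 groups of 5 arrays of member probe sets, the highest or lowest array was set against the others on the log2 scale, where chance flags about 1 in 20 among replicates. The 5 arrays here are different hours, so a change over the hours can also raise a flag. The share of 1 in 20 also does not hold for the 12 groups with an array at the floor, 7 of which had all arrays there. With butyrate, Cdkn1a on U24174_at at 2 h stood below the others (4.4, the next at 321), Rb1 on D25233cds_at at 12 h stood above them (129.2; the 4 others are tied at the floor, so that the floor fixes this flag), and Gadd45a on rc_AI070295_g_at at 12 h stood below them (935.4, the next at 1857.6). With aspirin, Gadd45a at 24 h stood above the others on L32591mRNA_at (7569.9, the next at 3359.7) and on L32591mRNA_g_at (7457.4, the next at 3564.1). These 2 probe sets carry the same accession in their names and are not independent.

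The treatments differed by the test itself for 2 results. Btg1 on L26268_at was higher with butyrate than with aspirin by 0.68, and the slope of Cdkn2b over the hours, butyrate minus aspirin, was −0.54.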

How the results depend on the processing

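The number of probe sets called moved with the settings. For butyrate against untreated (716) it was 322 with the doubled floor, 355 without the filter, 317 with hour as a factor, 0 with the 2 and 24 h arrays alone (576 at an unadjusted p under 0.05), and 310 to 1166 with 1 array left out. For aspirin against untreated (9) it was 5 with the common median, 3 without the variance trend, 0 with quantile normalization, with hour as a factor and with the 2 and 24 h arrays alone (626, 614 and 292 unadjusted), and 1 to 306. For butyrate against aspirin (1540) it was 683 with the doubled floor, 779 without the filter, and 240 to 1645. For the butyrate slope (550) it was 318, 329, and 81 to 541 in the same order. For the aspirin slope (101) it was 242 with the halved floor, 53 with the doubled one, 230 with linear hours, and 7 to 231. For the slope difference (106) it was 49 with the doubled floor, 37 without the filter, 70 with the common median, and 3 to 119. These counts were made with limma, and the cause of each move was not tested, beyond the larger number tested without the filter (8740).

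Of 310 values of the members that stand in the text, under other settings, 277 kept their direction and their side of the threshold, 14 lost the call, 5 gained it and 14 changed sign. With 1 array left out, 418 of 464 kept both, 21 lost the call, 6 gained it and 19 changed sign. These include fits that left out an array the value does not use, which cannot change its sign. Over all tested members and comparisons, printed or not, 22 of 466 values changed sign under other settings and 39 of 704 with 1 array left out. The sign changes were of differences and slopes that were not called. With the common median, butyrate minus untreated for Gadd45a on L32591mRNA_g_at was −0.09, and aspirin minus untreated was 0.12 on L32591mRNA_at, 0.01 on L32591mRNA_g_at and 0.07 on rc_AI070295_g_at. With hour as a factor the latter were 0.24, 0.17 and 0.25, and with the 2 and 24 h arrays alone 0.34, 0.24 and 0.36, while butyrate minus untreated on rc_AI070295_g_at was 0.20 and 0.09, and aspirin minus untreated for Btg1 on L26268_g_at −0.15 and −0.19.

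With 1 array left out, butyrate minus untreated ran from −0.68 to 0.27 for Cdkn2b, −0.31 to 0.82 for Gas6, −0.05 to 0.17 for Gadd45a on L32591mRNA_g_at and −0.30 to 0.07 on rc_AI070295_g_at. Aspirin minus untreated ran from −0.21 to 0.26 for Btg1 on L26268_g_at, −0.54 to 0.60 for Gas6, −0.32 to 0.05 for Gadd45a on L32591mRNA_at and −0.33 to 0.08 on rc_AI070295_g_at. The aspirin slope on rc_AI070295_g_at ran from −0.02 to 0.75, and the slope difference of Btg1 on L26268_at from −0.24 to 0.16. For Cdkn1a on U24174_at the butyrate slope ran from −0.09 to 0.65, the aspirin slope from −0.23 to 0.49 and their difference from −0.39 to 0.76. Arrays were paired by hour, as a block, in butyrate against aspirin and in the fit of the 2 and 24 h arrays, and the labels give no replicate numbers for another pairing.

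Each treatment and hour had 1 array and untreated cells had 2, so the spread at an hour is unknown. Signals near the floor, as of Cdkn1a, Cdkn1b and Rb1, have no measured order below it, and the probe sets of Cdkn1a, Btg1 and Gadd45a disagree in part.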

Other observations

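Further growth arrest genes moved with the hours of butyrate. Txnip, for a thioredoxin inhibitor that restrains glucose uptake, stood at 221.1, 266.6, 570.3, 1642 and 4914.4 over the 5 hours of butyrate, at 149.2 and 226.1 in untreated cells and at 95 to 309.6 with aspirin. Its slope with butyrate was 1.18 ± 0.28 in log2 per doubling of the hours (SE, limma, adjusted p = 0.0401), and the call was kept in 2 of 10 fits that left out 1 array and lost with the doubled floor, no filter, quantile normalization or the common median (0.055 to 0.094). Pmp22, a membrane protein gene also named growth arrest-specific, went from below the floor at 2 h (78.1) to 628.6 at 24 h of butyrate, a slope of 0.79 ± 0.12 (adjusted p = 0.00961) that was 0.52 with the doubled floor and lost its call without the 2 h butyrate array (0.175). It lay between 87.9 and 220 with aspirin and at 35.1 and 144.4 in untreated cells. The slope with butyrate was called on 1 of the 2 tested Pmp22 probe sets.

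Nupr1, a stress-induced chromatin protein gene, fell with the hours of butyrate from 599.9 at 2 h to 73.6 at 16 h and 117.5 at 24 h, and lay between 626.1 and 1414.1 with aspirin, above both untreated arrays (447.7 and 590.6). Its slope with butyrate was −0.76 ± 0.15 (limma, adjusted p = 0.0226), lost without the butyrate array of 2 h (0.42) or 16 h (0.0659), with the doubled floor (0.128), no filter (0.0528) or linear hours (0.103). It was lower with butyrate than with aspirin by −2.34 ± 0.38 (SE, limma, adjusted p = 0.0122), lost without the butyrate or aspirin array of 12 or 16 h (0.0588 to 0.0593). Btg3, of the same family as Btg1, lay between 1103.3 and 1990.1 with butyrate and between 1590.7 and 4135.7 with aspirin, lower with butyrate by −0.98 ± 0.15 (adjusted p = 0.0115), the opposite order to Btg1. That call was lost without the butyrate or aspirin array of 6, 12 or 16 h (0.0517 to 0.0585).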
